A study of Mus musculus with 12 samples.

Results

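Neoplasms of the AOM/DSS model of colitis-associated colon cancer were set against colon epithelium of mice given the carcinogen alone. The comparison takes every array labelled AOM/DSS (3 arrays) and every array labelled AOM (3 arrays), which is 6 of the 12 samples of the study. The other 6 arrays, 3 DSS and 3 untreated controls, entered only the estimate of the spread and are given as levels. All groups were female BALB/c mice, 5 to 7 weeks old at the start, with tissue of the distal colorectum taken on day 100. AOM/DSS mice received azoxymethane (AOM, an alkylating colon carcinogen) by 1 intraperitoneal injection of 12.5 mg/kg on day 1. From day 5 they also drank dextran sulfate sodium (DSS, which injures the epithelium and causes colitis) for 5 days of each 21-day cycle, for 3 cycles. AOM mice received 10 mg/kg of AOM once a week, 6 times, from day 1, and no DSS. DSS mice had the 3 DSS cycles only, and no treatment is given for controls. The AOM/DSS neoplasms were cut out with scissors and held in an RNA storage solution. For the other 3 groups a slide was used to scrape off epithelium, which went into Trizol. Disease, DSS exposure, AOM schedule, way of collection and storage therefore all differ between both groups and cannot be told apart. The sources used here do not say whether replicates come from different mice, or how many neoplasms an array holds. The p-values rest on the variation among these arrays, part or all of which may be technical.

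The colon epithelium is renewed from stem cells at the base of the crypts, where Wnt ligands hold beta-catenin active. Daughter cells leave the crypt base and become absorptive colonocytes, which take up water, salt and butyrate, or secretory cells such as mucus-making goblet cells and hormone-making enteroendocrine cells. AOM is known to produce activating mutations of the beta-catenin gene in mouse colon, and repeated colitis speeds the growth of the resulting adenomas. Beta-catenin works through TCF factors, which also switch on the negative feedback genes of the pathway, among them Axin2, Nkd1, Notum and members of the Dkk family. CDX2 and HNF4A are the factors that hold the intestinal differentiation programme.

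The letters that TCF factors are known to favour, CTTTGAA or CTTTGAT on either strand, were looked for in the RefSeq promoters (mouse build GRCm38.p6) of the 15 genes with the largest rises and of the 15 with the largest falls. The window ran from 250 bases before to 50 bases after the annotated start. Of the 12 risen genes with a promoter entry, 3 held the letters (Defa21, Mmp7 and Sema3e), and of the 13 fallen genes, 2 did (Mptx1 and Apob). Over all 27025 genes with an entry the share was 9.88%. The promoters of the 2 largest such rises are shown, with the matched letters in capitals. In that of Defa21, chr8:21025295-21025594 on the plus strand, ATCAAAG (the reverse complement of CTTTGAT) begins 112 and again 72 bases before the start. In that of Mmp7, chr9:7691840-7692139 on the plus strand, it begins 4 bases past the start.
Defa21: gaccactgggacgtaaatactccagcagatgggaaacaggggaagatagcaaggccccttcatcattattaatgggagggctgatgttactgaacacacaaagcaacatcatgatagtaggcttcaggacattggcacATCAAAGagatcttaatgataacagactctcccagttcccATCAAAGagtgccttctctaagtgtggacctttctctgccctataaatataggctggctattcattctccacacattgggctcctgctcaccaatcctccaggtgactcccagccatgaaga
Mmp7: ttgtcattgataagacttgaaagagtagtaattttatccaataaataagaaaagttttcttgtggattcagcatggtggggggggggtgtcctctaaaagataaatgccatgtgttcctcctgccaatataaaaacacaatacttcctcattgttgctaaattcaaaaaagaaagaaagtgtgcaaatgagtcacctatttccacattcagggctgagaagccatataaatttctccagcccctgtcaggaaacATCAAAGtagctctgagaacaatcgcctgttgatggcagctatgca
A match is a description and not a binding site. The letters TTTATNG, known to be favoured by CDX factors, were in the promoters of 8 of the 12 risen and 5 of the 13 fallen genes, against 12.5% of all. Read on the other strand these letters include CTATAAA, a form of the TATA box, which is the match in the Defa21 promoter shown. The difference between risen and fallen genes was not tested.

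The arrays were of unequal brightness and AOM replicate 1 stood apart. AOM/DSS arrays had a 75th percentile of probe intensity of 1116 to 1187, against 454 to 695 for AOM arrays. The share of probes well above background was 62.6 to 66.2% in AOM/DSS and 54.3 to 58.9% in AOM. No spot was saturated. AOM replicates 2 and 3 correlated at 0.985 with each other, whereas AOM replicate 1 correlated most closely, at 0.978, with DSS replicate 2 and at 0.954 to 0.962 with its own group. A slide carried AOM/DSS replicates 1 and 2 with AOM replicates 1 and 2. AOM/DSS replicate 3 shared a slide with the controls and AOM replicate 3 with the DSS arrays. With slide as a block the comparison therefore rests on those 4 arrays. Levels below are log2 intensities minus the array's 75th percentile, so 0 is a probe at that percentile, and a difference of 1 is a 2-fold change. Each difference is AOM/DSS minus AOM with its standard error (SE), and calls are those of limma below an adjusted p of 0.05 (Benjamini-Hochberg over all genes).

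Of 18700 genes tested, 7002 (37.4%) were called, 3703 of them higher (19.8% of those tested) and 3299 lower (17.6%) in AOM/DSS. The levels of the 2 groups did not overlap for 11177 genes (59.8%). Counts of list members given below are to be read against these shares. Without AOM replicate 1, 4446 genes were called (23.8%), and with slide as a block 2817 (15.1%). Of the calls, 52.9% were higher, against 33.9% after scaling each array to its median in place of its 75th percentile, which moved the median difference of all genes to -0.36 from -0.03. Detection was uneven. On all 3 AOM/DSS but no AOM arrays, 1181 tested genes were well above background, and 66 were so in the reverse case. When all 6 arrays had to be well above background, 41.2% of calls were higher. Few of the genes that rose furthest were annotated. Of the 18700 genes tested, 13362 carried a gene symbol. Of those called past 3 log2 units, 153 of 195 falls but 49 of 416 rises did. The 2779 genes known only as cDNA clones had a median difference of 1.35, against -0.19 for the 13723 RefSeq genes. Clone probes had a median level of -2.22, -2.35 and -2.56 on the 3 AOM/DSS arrays and of -3.21, -3.88 and -3.81 on the AOM arrays. The level was -2.38, -2.26 and -2.82 on the control arrays and -2.22, -3.63 and -3.63 on the DSS arrays. High clone levels were therefore not particular to the neoplasms. Clone probes are not used further.

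The largest fall was that of Retnlb, which encodes a goblet cell protein of the resistin family. It stood at 1.41, -2.42 and -2.65 in AOM/DSS neoplasms and at 6.66, 7.69 and 7.48 in AOM epithelium. All 3 neoplasm values lay over 5 units below every AOM value, a difference of -8.50 (SE 0.96, adjusted p = 0.00064). The water channel gene Aqp8 stood at 0.84, -0.26 and -3.85 in AOM/DSS and at 7.37, 5.93 and 5.79 in AOM, a difference of -7.45 (SE 0.96, adjusted p = 0.00125). Mptx1, a mucosal pentraxin, differed by -6.93, Gcg (proglucagon) by -6.70, Cyp2f2 (a cytochrome P450) by -6.63, and Hao2 (a peroxisomal hydroxyacid oxidase) by -6.60. Gcg, Cyp2f2 and Hao2 were well above background on 1 of 3 neoplasm arrays, replicate 1, which held the highest value of each (-2.56, -3.16 and -2.11). Apob, which encodes the apolipoprotein B of lipoproteins, was well above background on no neoplasm array. Its level averaged -6.70 in AOM/DSS and -1.17 in AOM, at least 14.9-fold lower (adjusted p = 0.0121). Here and below, the adjusted p beside a fold given as at least is that of the difference of the means, not of the fold. The syncollin gene Sycn, known for secretory granules of the pancreas, stood at 2.19, 0.56 and -1.92 against 6.54, 6.36 and 6.21 (difference -6.09). The thrombospondin gene Thbs4 differed by -6.13. Retnlb averaged 7.28 in AOM, 6.87 in DSS and 7.20 in controls, and Aqp8 averaged 6.36 in AOM, 7.17 in DSS and 8.32 in controls.

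Among the largest rises were alpha-defensins, a metalloproteinase, a Wnt inhibitor and genes of unlike function. Defa21, an alpha-defensin that Paneth cells of the small intestine secrete, stood at 5.07, 5.30 and 5.05 in AOM/DSS and at -4.97, 2.31 and 0.10 in AOM. The groups did not overlap, and the AOM values spread over 7 units (difference 5.99, SE 1.33, adjusted p = 0.00988). The difference without AOM replicate 1 was 3.93 (adjusted p = 0.0032). Alpha-defensin genes are near-identical copies, so a probe may read several of them. Mmp7 (matrilysin, which in mouse Paneth cells cuts pro-defensins) stood at 5.27, 6.77 and 6.88 in AOM/DSS and at -0.49, 2.90 and 2.47 in AOM (difference 4.68, SE 0.84, adjusted p = 0.00483). Tex15, a gene of the male germ line, differed by 4.93. Abcc2, an exporter of conjugated compounds, differed by 4.18, Aspa (aspartoacylase) by 3.99, Plagl1 (an imprinted zinc finger gene) by 3.87, and the semaphorin gene Sema3e by 3.84. All 15 of these rises had AOM replicate 1 as the lowest of the 6 arrays. Among them, Defa21, Tex15, Abcc2, Defa39, Erich3, Sema3e, Dkk2 and Cep112 were well above background on 2 of 3 AOM arrays. In these genes the value of AOM replicate 1 was a background reading, and the size of the difference rests in part on it. The genes of 2 further rises were well above background on no AOM array. Il1f9 (interleukin 36 gamma) averaged -2.18 in AOM/DSS and -6.09 in AOM, at least 4.88-fold higher (adjusted p = 0.00101). Prex2, an exchange factor for Rac, averaged -1.69 in AOM/DSS and -5.36 in AOM, at least 6.86-fold higher (adjusted p = 0.00338). Erich3 (difference 4.14, or 2.15 without AOM replicate 1) and Dkk2 (3.76, or 2.04) were the least stable of the 30 genes, with a call in 14 and 15 of 21 other settings.

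**Figure D1:**
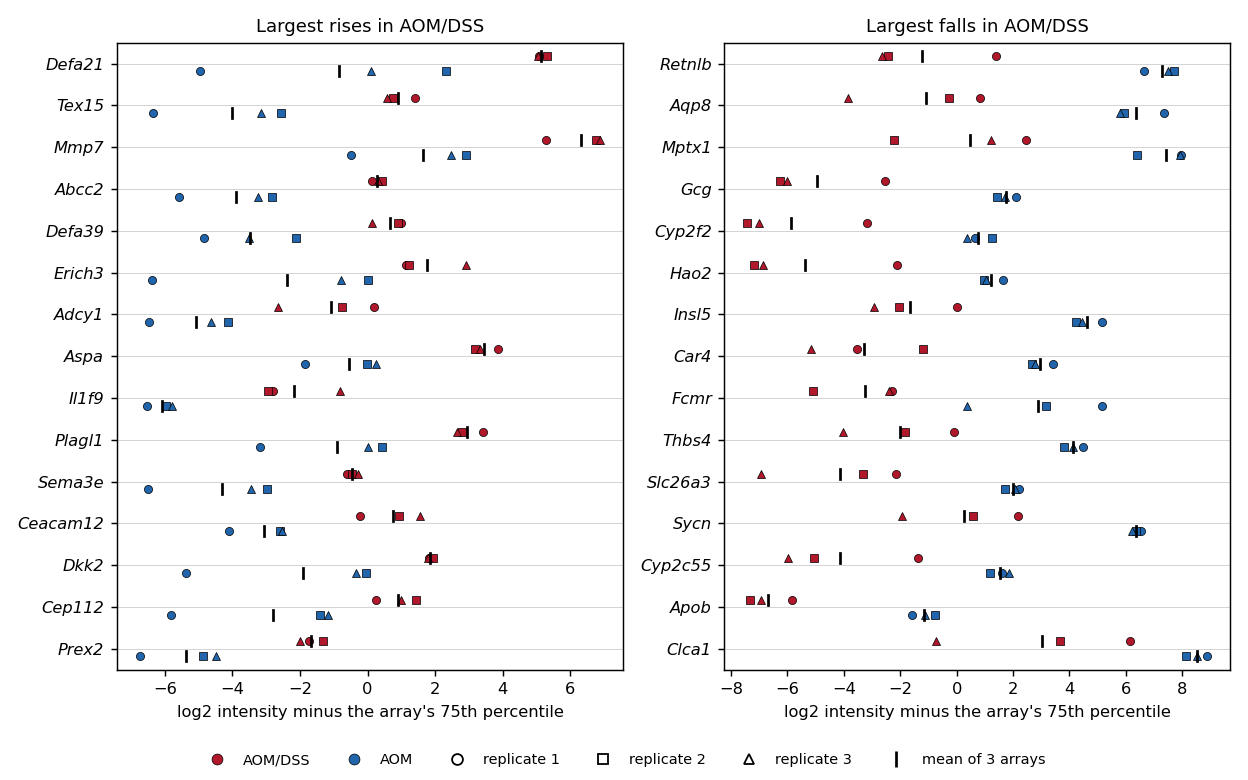
Level of the 15 largest rises (left panel) and 15 largest falls (right panel) on each array, as log2 intensity minus the array's 75th percentile on the horizontal axis. Points are arrays (red, AOM/DSS; blue, AOM; shape gives the replicate) and black ticks are means of 3 arrays. No gene overlaps between the groups, which the rule for choosing them required. AOM replicate 1 is the leftmost point of every risen gene.

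Absorptive colonocyte genes fell as a group. Of 26 tested, 18 were called lower and none higher, with a median difference of -1.58 against -0.03 over all genes tested. With slide as a block 12 were called lower, and without AOM replicate 1, 14. Slc26a3, the apical chloride and bicarbonate exchanger, stood at -2.15, -3.32 and -6.93 in AOM/DSS and at 2.21, 1.70 and 2.07 in AOM (difference -6.13, SE 0.94, adjusted p = 0.00268). The neoplasms spread over more than 4 units and the AOM arrays over less than 1. Car4, a membrane carbonic anhydrase, stood at -3.54, -1.21 and -5.15 against 3.41, 2.68 and 2.79 in AOM (difference -6.26). Slc26a3 and Car4 were each well above background on 2 of 3 neoplasm arrays. The size of both falls, and the spread of the neoplasms, therefore rest in part on background readings. Fabp2, which binds fatty acids, fell by 5.07 and Guca2a (guanylin) fell by 3.46. Krt20, a keratin of surface cells, stood at 4.09, 4.63 and 4.09 in AOM/DSS and at 7.40, 6.75 and 6.91 in AOM, a tight fall of 2.75 units (SE 0.36, adjusted p = 0.00138). The probes of Alpi, an intestinal alkaline phosphatase gene, disagreed. The brighter stood at -7.40, -7.25 and -7.23 in AOM/DSS, well above background on none of those arrays, and at -1.57, -2.11 and -2.12 in AOM (adjusted p = 0.000129). The other, well above background on all 6 arrays, stood at -3.94, -3.65 and -4.01 in AOM/DSS and at -3.15, -3.65 and -3.74 in AOM, a difference of -0.35 that was not called (adjusted p = 0.213 when only probes detected on all 6 arrays were tested), so no fold is given. The butyrate carrier gene Slc16a1 differed by -0.99 (adjusted p = 0.0409, and 0.12 without AOM replicate 1). The fall was not general. Car2 stood at 5.28, 5.01 and 5.26 against 5.05, 4.98 and 5.20 in AOM, and Car1 at 5.33, 4.45 and 4.97 against 5.16, 4.42 and 4.35. Both are soluble carbonic anhydrases of colonocytes, and neither was called (adjusted p = 0.747 and 0.59). In bulk tissue fewer cells of a type and less RNA per cell cannot be told apart.

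Goblet cell genes fell too, and by unequal amounts in the 3 neoplasm arrays. Of 16 tested, 12 were called lower and none higher (median difference -1.98), 11 without AOM replicate 1 and 6 with slide as a block. Clca1, a secreted mucus protein gene, stood at 6.14, 3.66 and -0.73 in AOM/DSS and at 8.89, 8.15 and 8.52 in AOM (difference -5.50, SE 1.26, adjusted p = 0.0107). Zg16, a lectin of the mucus layer, stood at 6.31, 4.71 and 0.52 in AOM/DSS and at 9.81, 8.95 and 9.06 in AOM (difference -5.43). Muc2, the gel-forming mucin of the colon, stood at 4.73, 3.37 and 2.35 against 6.62, 5.85 and 5.81 in AOM (difference -2.61, SE 0.59, adjusted p = 0.0101). For these 3 genes, and for Fcgbp and Tff3 (differences -3.78 and -2.76), AOM/DSS replicate 3 was the lowest array and replicate 1 the highest neoplasm. The goblet cell factors fell less. Atoh1, which commits cells to the secretory fate, stood at -3.38, -2.86 and -3.75 in AOM/DSS and at -1.49, -1.57 and -1.49 in AOM (difference -1.81), and Spdef, a goblet cell factor, differed by -1.74. Reg4 (-0.44) and Ang4 (-1.40, adjusted p = 0.0997) were not called.

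Most hormone genes fell. Of 16 enteroendocrine genes tested, 12 were called lower and 1 higher, with a median difference of -3.83, or -3.31 with genes below background set at their bound. The hormone gene Nts (neurotensin) went the other way without a call (difference 1.40, adjusted p = 0.0545 in limma). It was called when the percentile was taken over probes with a symbol (1.51, adjusted p = 0.0437). Chga (chromogranin A, a granule protein) stood at -0.31, -1.58 and -1.76 in AOM/DSS and at 3.92, 3.19 and 3.18 in AOM (difference -4.65, SE 0.41, adjusted p = 0.000198). Pyy (peptide YY) stood at 1.86, 1.73 and 0.20 against 7.06, 6.04 and 6.21 in AOM (difference -5.17). Insl5, a hormone of colonic L cells, stood at 0.03, -2.06 and -2.94 against 5.15, 4.23 and 4.43 in AOM (difference -6.26, SE 0.63). Cck (cholecystokinin) differed by -4.67, with the neoplasms between -5.03 and -4.68. In each of these genes the spread within a group was under 4 units and the groups lay well apart. Tph1, which makes serotonin in enterochromaffin cells, fell by 3.03. Sst (somatostatin) was below the background limit on all 3 neoplasm arrays and at least 12-fold lower (means -6.32 in AOM/DSS and -1.48 in AOM, adjusted p = 0.00051), and the endocrine factor gene Pax4 likewise at least 2.74-fold lower (means -7.32 in AOM/DSS and -3.61 in AOM, adjusted p = 0.00051). Neurog3, which starts endocrine differentiation, differed by -1.32 (adjusted p = 0.00778). The gene called higher, Isl1, is an endocrine and stromal transcription factor; it stood at -0.40, -0.90 and -1.22 against -3.92, -2.15 and -1.68 in AOM, and lost the call without AOM replicate 1 (difference 1.07, adjusted p = 0.15). All 12 lower calls held both without that array and with slide as a block.

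Of 11 tuft cell genes, 2 were called higher and 4 lower, against 19.8% and 17.6% over all genes. With slide as a block 4 were called lower and none higher. Gfi1b, a tuft cell factor, was below the background limit in the neoplasms and at least 4.45-fold lower (means -5.94 in AOM/DSS and -2.91 in AOM, adjusted p = 0.00193). Alox5 and Ltc4s, both of leukotriene synthesis, differed by -1.91 and -1.70, and the prostaglandin D synthase gene Hpgds by 1.91. Avil (advillin) differed by 1.56, and lost the call without AOM replicate 1 (adjusted p = 0.083). Dclk1 was not called (-0.59, adjusted p = 0.344), and its probes disagreed in sign (-2.34 to 0.06). Of 7 Paneth cell genes tested, 3 were called higher (Defa21, Mmp7 and Habp2). Habp2 was well above background on no AOM array (means -3.61 in AOM/DSS and -6.38 in AOM), and with it at its bound the list's median difference was 1.35 in place of 2.76. The alpha-defensin gene Defa39, outside the list, was among the largest rises at 1.00, 0.90 and 0.12 against -4.83, -2.13 and -3.51 in AOM (difference 4.16). The lysozyme gene Lyz1, known from Paneth cells, stood at 6.16, 6.88 and 6.20 against 6.39, 4.58 and 4.22 in AOM and was not called (adjusted p = 0.162). Of 12 general epithelial genes, 4 were called lower and none higher. Krt8 stood at 7.72, 7.99 and 7.72 against 9.46, 9.03 and 8.99 in AOM (difference -1.35). Krt19, Lgals4 and Tspan8 differed by -1.40, -1.17 and -0.57, Tspan8 without a call when AOM replicate 1 was left out (adjusted p = 0.15). Epcam, an adhesion protein gene of nearly all epithelia, stood at 4.45, 4.82 and 4.63 against 4.82, 4.67 and 5.21 and was not called (adjusted p = 0.435). With quantile normalization only 1 of these 12 was called lower and their median was -0.05, against -0.54.

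**Figure D2:**
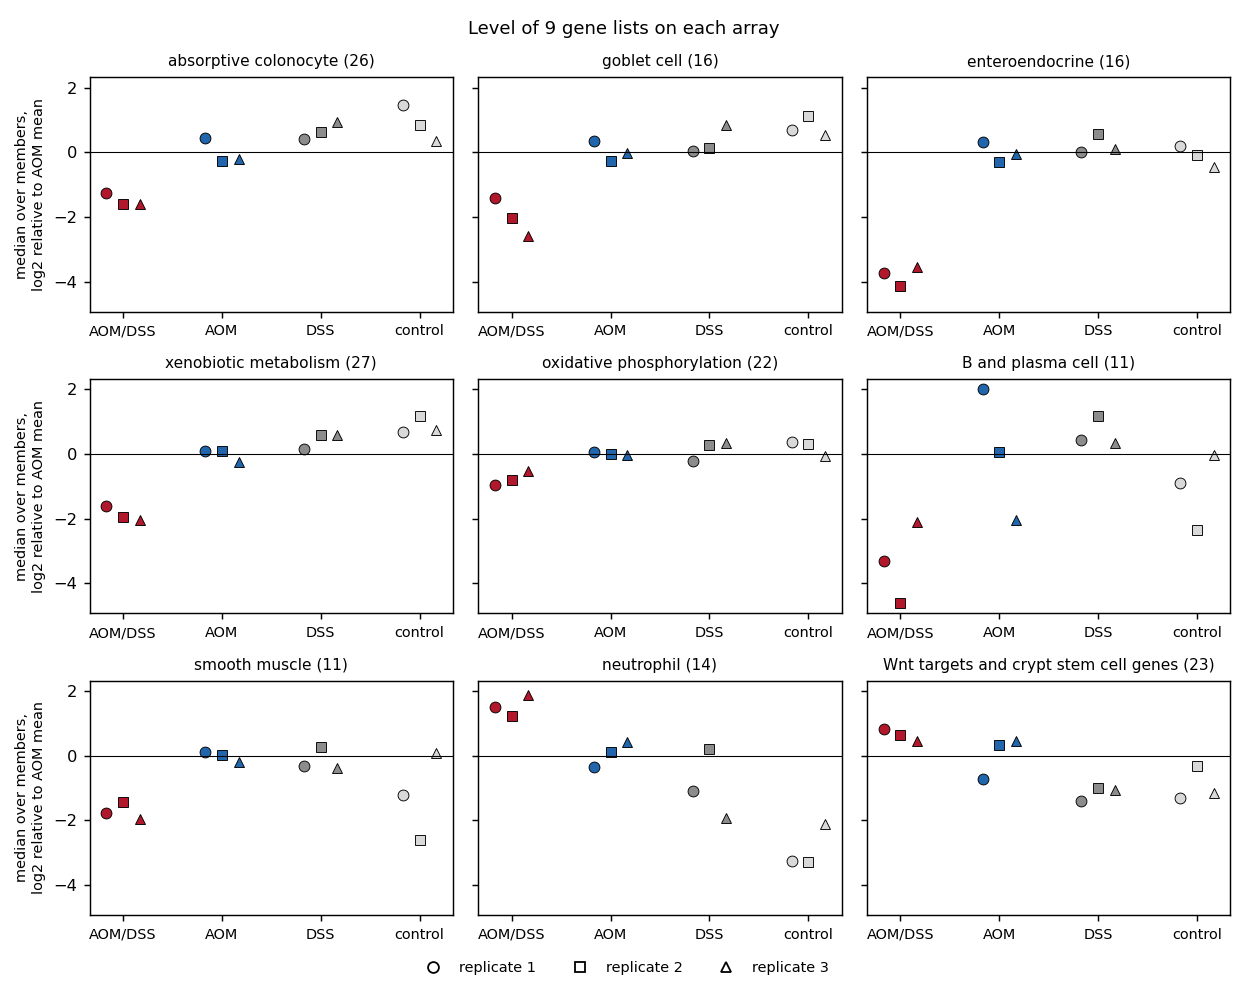
Level of 9 gene lists on each of the 12 arrays. Each point is the median over the tested members (number in brackets) of the log2 level minus the member's AOM mean, so that the AOM arrays lie around 0. The 3 AOM/DSS arrays lie below all AOM arrays for colonocyte, goblet, enteroendocrine, xenobiotic, respiratory chain and smooth muscle genes and above them for neutrophil genes. For B and plasma cell genes the AOM arrays themselves spread over 4 units.

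Of 20 posterior Hox genes and factors of intestinal identity, 7 were called lower and 1 higher. Cdx2 stood at 1.23, 1.10 and 0.96 in AOM/DSS and at 4.07, 3.41 and 3.36 in AOM, a difference of -2.52 (SE 0.31, adjusted p = 0.00101). The neoplasm values lay within 0.3 of each other and over 2 units below any AOM value. DSS and control epithelium averaged 4.24 and 4.18. Cdx1, its close relative, differed by -1.52, Klf4 (a factor of surface cells) by -2.42, the vitamin D receptor gene Vdr by -1.97 and Hnf4a by -1.34. Klf5, a factor of proliferating crypt cells, and Gata6 were not called (-0.68 and -0.16). The gene called higher was Hoxb9 (2.37, 2.81 and 2.13 against 0.91, 1.11 and 1.59 in AOM, difference 1.23). Hoxa13 and Hoxb13, the most posterior of their clusters, fell by 1.55 and 1.05. A block for slide left 4 called lower, and the calls of Hoxa13, Hoxb13 and Hnf4a were lost (adjusted p = 0.12, 0.088 and 0.053). Without AOM replicate 1, Hoxa13 and Hoxb9 were not called (adjusted p = 0.096 and 0.053).

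Genes for handling foreign compounds fell in the neoplasms. Of 27 tested, 19 were called lower and 1 higher (median difference -1.79), 15 lower both with slide as a block and without AOM replicate 1. Nr1i2, the pregnane X receptor that senses such compounds, stood at -0.66, -0.77 and -0.90 in AOM/DSS and at 1.42, 1.44 and 1.31 in AOM (difference -2.16, SE 0.25, adjusted p = 0.00065). Both groups were tight and did not overlap. Cyp2c55, a cytochrome P450 of mouse colon, stood at -1.38, -5.05 and -5.96 against 1.61, 1.20 and 1.86 in AOM (difference -5.69). It was well above background on 1 of 3 neoplasm arrays, so the size of its fall rests in part on background readings. Cyp2s1 fell by 3.61, Cyp3a13 by 3.25, the carboxylesterase gene Ces2c by 3.22 and the sulfotransferase gene Sult1c2 by 5.08. The efflux pump genes Abcg2 and Abcb1a differed by -1.80 and -1.79, in contrast to Abcc2 above. The glutathione transferase genes Gstm1 and Gstp1 differed by -1.28 and -0.75, and both lost the call without AOM replicate 1 (adjusted p = 0.11 for each). Ugt2b34, a glucuronosyltransferase gene, was the gene called higher (difference 1.39, adjusted p = 0.0225, and 0.052 without that array).

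Mitochondrial genes were lower by smaller amounts, and this depended on how the arrays were normalized. Of 22 respiratory chain and ATP synthase genes, 13 were called lower and none higher (median difference -0.80). Uqcrc1, a core subunit of complex III, stood at 4.32, 4.51 and 4.31 in AOM/DSS and at 6.19, 5.98 and 5.80 in AOM (difference -1.61, SE 0.27, adjusted p = 0.00353). Cox6c and Cox4i1 of complex IV differed by -1.27 and -1.18, and the bright ATP synthase gene Atp5b by -0.86. With quantile normalization the median was -0.12, 4 members were called lower and 2 higher (Ndufs1 and Ndufa4), so the direction of the list as a whole did not hold there. Of 21 fatty acid oxidation and ketogenesis genes 11 were called lower and none higher (median -0.73), against 6 lower after quantile normalization and 1 after normexp background correction. Hadh, which acts in mitochondrial beta-oxidation, stood at 3.09, 2.95 and 2.91 against 4.44, 4.58 and 4.04 in AOM (difference -1.38), and Acads, the short-chain acyl-CoA dehydrogenase gene, differed by -1.57. Bdh1 of ketone body metabolism differed by -1.04. With slide as a block 8 respiratory chain and 5 fatty acid genes were called lower, and without AOM replicate 1, 10 and 6, with Atp5b among those lost (adjusted p = 0.054).

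Of 24 glycolysis and hypoxia genes, 3 were called higher and 4 lower, below the 19.8% and 17.6% over all genes. Bnip3, induced by low oxygen, stood at 3.44, 3.47 and 3.49 in AOM/DSS and at 1.36, 1.85 and 1.93 in AOM (difference 1.75, SE 0.32, adjusted p = 0.00522). Vegfa, an angiogenic factor, differed by 1.35 and Slc16a3, the lactate exporter gene, by 1.32. Gpi1, Hk1, Ndrg1 and the glucose carrier gene Slc2a1 differed by -1.08, -1.06, -1.04 and -0.95. Glycolytic genes of the highest level, Aldoa (-0.82), Gapdh (-0.60) and Ldha (-0.60), were not called. The list's median of -0.40 turned to 0.10 with quantile normalization. Of 22 cholesterol genes, 3 were called lower (Dhcr7, Mvk and Ebp) and 1 higher (Idi1). Without AOM replicate 1 the calls of Gpi1, Ndrg1, Slc2a1, Mvk, Ebp and Idi1 were lost (adjusted p = 0.062 to 0.14).

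**Figure D3:**
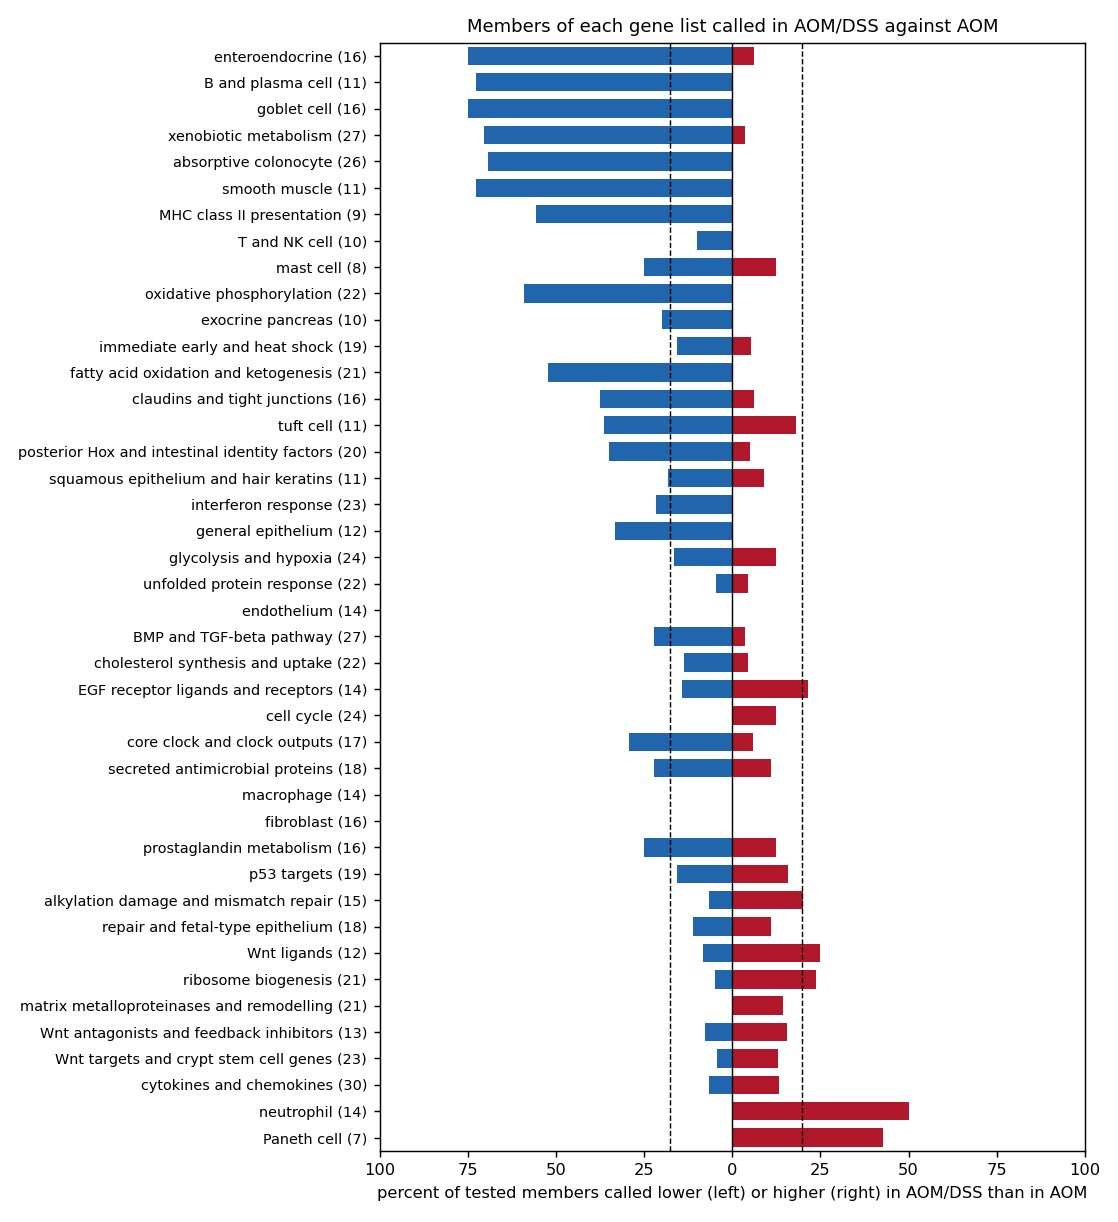
Percent of the tested members of each gene list (number tested in brackets) called lower (blue, to the left) and higher (red, to the right) in AOM/DSS than in AOM, for lists with at least 7 tested members. Dashed lines mark the shares over all genes, 17.6% lower and 19.8% higher. Lists run by median difference, lowest at the top, from enteroendocrine genes to Paneth cell genes.

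Of 23 genes that Wnt induces or that mark crypt stem cells, 3 were called higher and 1 lower. In the main setting these are smaller shares than over all genes. The median difference was 0.76, or 0.35 without AOM replicate 1. With quantile normalization 6 of the 23 were called higher and 1 lower, against 3608 called higher of all 18700 genes. Rnf43, Sox4 and Prom1 were called higher only there (adjusted p = 0.0194, 0.0448 and 0.0462 in limma) and not in the main setting. Axin2, the standard readout of the pathway, stood at 0.59, 0.74 and 1.15 in AOM/DSS and at -2.49, -0.04 and 0.68 in AOM. The groups overlapped, and the difference of 1.44 was not called (SE 0.68, adjusted p = 0.114). Lgr5, the receptor that marks crypt stem cells, stood at 2.63, 1.66 and 1.49 against -2.69, 0.80 and 0.43 in AOM (difference 2.41, adjusted p = 0.0581). Sp5 stood at 2.16, 2.69 and 2.52 against -2.07, 2.17 and 1.77 (difference 1.83, adjusted p = 0.143). In all 3 genes AOM replicate 1 lay over 2 units below the other AOM and AOM/DSS arrays. The DSS means were -2.23 for Axin2, -4.76 for Lgr5 and -4.31 for Sp5. The targets that passed with and without it were Tnfrsf19, a TNF receptor family member of crypt stem cells, Znrf3, which removes Wnt receptors, and Bmi1. Tnfrsf19 stood at 2.47, 2.92 and 1.99 in AOM/DSS and at -2.18, 0.17 and 0.13 in AOM (difference 3.09, adjusted p = 0.0154; without AOM replicate 1, 2.31 and 0.0494). Znrf3 stood at 0.23, 0.22 and -0.28 against -3.77, -1.48 and -1.75 (difference 2.39, or 1.67 without that array, adjusted p = 0.00844 and 0.011). Myc, Cd44 and Sox9 were not called (-0.04, 0.21 and 0.33). Msi1, an RNA-binding protein gene of progenitors, fell by 2.02 units.

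The secreted and intracellular inhibitors of the pathway showed the same arrangement. Nkd1 stood at 4.54, 4.83 and 4.54 in AOM/DSS and at -0.37, 4.12 and 4.18 in AOM, and Wif1 at 5.55, 5.51 and 5.20 against 0.16, 4.72 and 4.62. Notum, which inactivates Wnt proteins by removing their lipid, stood at 2.18, 2.06 and 1.21 against -3.45, 1.49 and 1.13. None of these was called, with AOM replicate 1 (adjusted p = 0.17, 0.0858 and 0.12) or without it (0.63, 0.12 and 0.25). In the authors' series matrix values Wif1 was narrowly called (difference 2.75, adjusted p = 0.0498 in limma). AOM replicates 2 and 3 lay over 5 units above the DSS and control means of all 3 genes. Dkk2 stood at 1.82, 1.95 and 1.78 against -5.36, -0.05 and -0.33 in AOM, above every AOM array (difference 3.76, SE 1.07, adjusted p = 0.0221; without AOM replicate 1, 2.04 and 0.0015). Apcdd1, a membrane inhibitor of Wnt signalling, differed by 1.89 (adjusted p = 0.0235), and by 1.07 without AOM replicate 1 (adjusted p = 0.023). Its call was lost without AOM/DSS replicate 1 or 2, under median scaling, quantile normalization and normexp (where the difference was 0.46), in the authors' series matrix values, with the 6 arrays alone and on slide 1 alone (adjusted p from 0.0523 to 0.743). Dkk2 and Apcdd1 were the 2 of 13 inhibitors called higher. Sfrp2, a secreted inhibitor of stromal cells, stood at -4.86, -5.21 and -7.13 against -2.69, 0.08 and -0.72 (difference -4.62, adjusted p = 0.0126), and was the member called lower. It lost the call with slide as a block (adjusted p = 0.086).

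Of 12 Wnt ligand genes tested, 3 were called higher and 1 lower, against 19.8% and 17.6% over all genes. Wnt3, which Paneth cells make in the small intestine, stood at -1.54, -0.61 and -1.24 in AOM/DSS and at -3.1, -2.76 and -3.47 in AOM (difference 1.98, SE 0.32, adjusted p = 0.0033), the same with and without AOM replicate 1. Wnt6 stood at 2.32, 3.05 and 2.35 against -1.43, 1.71 and 1.55 (difference 1.96, adjusted p = 0.0433), and narrowly lost the call without that array (0.94, adjusted p = 0.053). Wnt10a, at 3.33, 3.83 and 2.33 against -0.35, 2.58 and 2.74, was not called. Wnt16 (1.38) was dim, well above background on 1 of 3 AOM arrays, and its difference was -0.05 after normexp background correction. Wnt9a was the ligand called lower (-0.99, and adjusted p = 0.078 without AOM replicate 1).

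**Figure D4:**
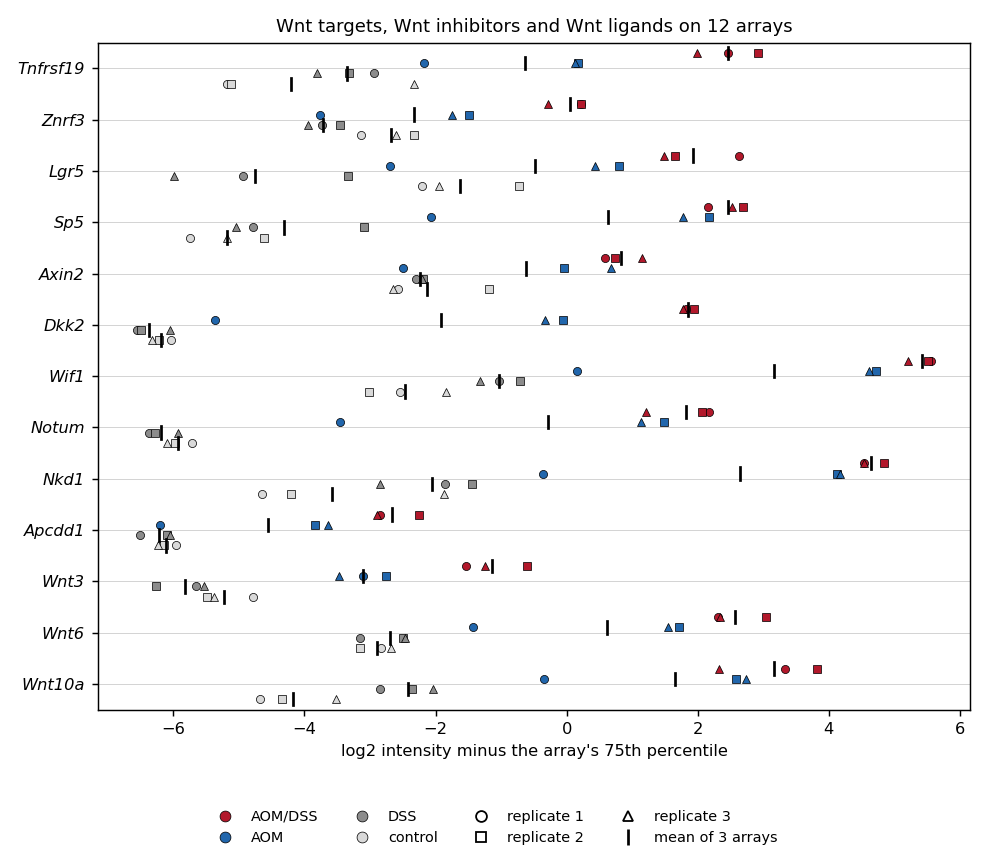
Level of 13 Wnt targets, inhibitors and ligands on the 12 arrays, as log2 intensity minus the array's 75th percentile. Points are arrays (red, AOM/DSS; blue, AOM; dark grey, DSS; light grey, control; shape gives the replicate), ticks are means of 3. For Axin2, Sp5, Lgr5, Wif1, Notum, Nkd1 and Dkk2, AOM replicate 1 (blue circle) lies below AOM replicates 2 and 3 and below all AOM/DSS arrays.

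Few proliferation genes were called. Of 24 cell cycle genes, 3 were called higher and none lower, and their median difference was -0.23. Mki67, the Ki-67 antigen of cycling cells, stood at 3.24, 3.58 and 4.0 in AOM/DSS and at 1.91, 2.53 and 2.62 in AOM (difference 1.25, SE 0.43, adjusted p = 0.0426). Top2a differed by 0.91. Both lost the call without AOM replicate 1 (adjusted p = 0.14 and 0.17). Ccne2, a cyclin of S phase entry, differed by 1.57, and by 1.62 without that array (adjusted p = 0.016). Pcna stood at 4.29, 4.27 and 4.98 against 4.19, 4.26 and 4.49 in AOM and was not called, with a 95% interval of -0.50 to 0.90 for the difference. Of 21 ribosome biogenesis genes, 5 were called higher and 1 lower, against 19.8% and 17.6% over all genes. With slide as a block 1 was called higher. Gnl3 (nucleostemin) stood at 1.54, 1.10 and 1.63 against -0.95, -0.35 and 0.12 (difference 1.82, adjusted p = 0.0108), Nop58 differed by 1.30, Dkc1 by 1.27 and Ncl (nucleolin) by 1.01, while Bop1 differed by -0.86. Only Gnl3 of these was called without AOM replicate 1.

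Of 19 p53 targets, 3 were called higher and 3 lower, below the 19.8% and 17.6% over all genes. Trp53inp1 stood at 3.67, 3.82 and 3.09 in AOM/DSS and at 1.57, 2.03 and 2.11 in AOM (difference 1.63), and Mdm2, the ubiquitin ligase that limits p53, and Ccng1 (cyclin G1) differed by 1.00 and 1.09, the 2 probes of Ccng1 with opposite signs and Ccng1 without a call when AOM replicate 1 was left out (adjusted p = 0.1). Btg2 and Perp, an antiproliferative and a junction gene, differed by -1.25 and -0.92. Cdkn1a (p21), which halts the cell cycle, stood at 3.36, 3.20 and 2.54 against 4.30, 4.44 and 4.39 (difference -1.34, adjusted p = 0.0328, and 0.07 without AOM replicate 1). Phlda3, at 4.0, 3.0 and 3.01 against 3.16, 3.63 and 3.83, and Bax were not called. Control epithelium averaged -0.43 for Phlda3. Of 15 genes for repair of alkylation damage and mismatches, Mlh3, Msh3 and Polb were called higher (1.19, 0.95 and 0.70) and Mpg, the glycosylase gene for methylated bases, lower (-0.80), and none of the 15 was called without AOM replicate 1. Msh6, of mismatch recognition, was not called (-0.05).

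Neutrophil genes rose in the neoplasms. Of 14 tested, 7 were called higher and none lower (median difference 1.73). S100a9, a subunit of calprotectin, stood at 5.74, 6.58 and 7.23 in AOM/DSS and at 2.55, 3.48 and 3.84 in AOM (difference 3.23, SE 0.78, adjusted p = 0.0127). Its partner S100a8 stood at 3.03, 5.13 and 5.65 against 0.47, 2.50 and 2.32 (difference 2.84). The formyl peptide receptor gene Fpr1 differed by 2.34, the neutrophil collagenase gene Mmp8 by 2.67 and the lectin receptor gene Clec4e by 1.86. Hdc, which makes histamine in mast cells and neutrophils, differed by 2.14. Csf3r, the G-CSF receptor gene, and Mpo were not called (0.32 and -0.59). Without AOM replicate 1 only S100a9 and Mmp8 were called (median 1.66), with slide as a block only Hdc (median 1.69), and after normexp background correction 1 member. Relative to the AOM mean, the median level of the list was 1.51, 1.22 and 1.87 on the AOM/DSS arrays, -0.34, 0.12 and 0.43 on the AOM arrays, and -3.27 to -2.13 in controls.

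Of 30 cytokine and chemokine genes, 4 were called higher and 2 lower. Cxcl2, a neutrophil attractant, stood at -0.92, -0.94 and 0.18 in AOM/DSS and at -6.20, -2.55 and -2.59 in AOM (difference 3.22, SE 0.84, adjusted p = 0.0159; without AOM replicate 1, 2.01 and 0.019). Cxcl3, of like function, differed by 2.43 (1.37 without that array) and Il23a, a subunit of interleukin 23, by 2.82 (1.80 without it). Il1f6 (interleukin 36 alpha) was well above background on no AOM array and at least 1.55-fold higher. Its means were -3.84 in AOM/DSS and -6.13 in AOM (adjusted p = 0.0107 for the difference of these means, not for the fold). Ccl28, a chemokine of mucosal epithelium, stood at -2.61, -3.13 and -3.64 against 0.06, -0.64 and -1.21 in AOM (difference -2.53, adjusted p = 0.00216). Ccl5 fell by 2.54, with AOM replicate 1 the highest array at 5.22, and lost the call without it (adjusted p = 0.094). Of 21 metalloproteinase and remodelling genes, Mmp7, Mmp8 and Adamts4 (2.15) were called higher. Timp1, an inhibitor of metalloproteinases, stood at 2.05, 2.39 and 2.76 against 2.85, 2.56 and 2.38 and was not called. Of 18 secreted antimicrobial genes, S100a8 and S100a9 were called higher, and Retnlb, Slpi (-1.83), Saa2 (-1.15) and Wfdc2 (-1.14) lower. Saa2 and Wfdc2 lost the call without AOM replicate 1 (adjusted p = 0.088 and 0.064). Saa1 and Saa2 are near-identical copies and may share signal.

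B and plasma cell genes were lower, against AOM arrays that differed strongly among themselves. Of 11 tested, 8 were called lower (median difference -3.42). Cd79b, of the B cell receptor, stood at -0.07, -0.73 and 0.60 in AOM/DSS and at 6.64, 4.33 and 2.07 in AOM (difference -4.41, SE 0.98, adjusted p = 0.00975). Fcer2a, a low-affinity IgE receptor gene of B cells, stood at -4.79, -5.32 and -4.54 in AOM/DSS and at 2.09, 0.25 and -2.59 in AOM (difference -4.80). In both, AOM replicate 1 was highest and replicate 3 lowest of the AOM arrays, and no neoplasm reached the lowest of them. Fcmr, an IgM receptor and among the largest falls, was arranged alike (5.16, 3.15 and 0.35 in AOM). The list had 5 calls without AOM replicate 1 (median -2.73). Jchain, the joining chain of secreted antibodies, was not called (-1.54, adjusted p = 0.0741). Of 9 genes of MHC class II presentation 5 were called lower (H2-Oa, H2-DMb2, Ciita, H2-DMa and H2-DMb1, by -3.59 to -1.37), none of them without AOM replicate 1, and 2 with slide as a block. Of 10 T and NK cell genes Cd3e was called lower (-1.53), against none without AOM replicate 1 and 3 with slide as a block. The amount of lymphoid tissue in a scraping was not measured, and its part in these differences was not tested.

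Smooth muscle genes were lower in the clipped neoplasms than in the scrapings. Of 11 tested, 8 were called lower and none higher (median -1.45), among them Des (desmin, -3.22), Cnn1 (calponin, -2.93) and Tagln (-2.17). Acta2 stood at 3.36, 3.67 and 3.67 in AOM/DSS and at 4.97, 4.49 and 4.61 in AOM (difference -1.12). The calls fell to 2 without AOM replicate 1 and to 1 with slide as a block, while the medians were -1.40 and -1.56. No fibroblast (16), endothelial (14) or macrophage (14) gene was called. Dcn (decorin) stood at 6.45, 5.76 and 6.53 against 5.24, 5.46 and 4.88, Col1a2 at 5.81, 5.54 and 5.47 against 5.37, 5.96 and 5.31, and C1qa at 2.94, 2.92 and 3.49 against 4.01, 3.1 and 2.91. The mast cell protease genes Mcpt1 and Mcpt4, which are close copies, differed by -2.57 and -2.51, with AOM/DSS replicate 2 lowest (0.90 and 0.82). Of 10 exocrine pancreas genes Sycn and Cela1 were called lower; Pnliprp1, at 4.46, 4.90 and 4.91 against -1.49, 2.26 and 2.51 in AOM, was not. Of 11 squamous and hair keratin genes Dsg3 was called higher (2.37) and Krt5 and Krt15 lower. Red blood cell (3), neuronal and glial (4) and, but for Cidec (-2.30), adipocyte (4) genes were not called.

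Of 14 EGF receptor ligands and receptors, 3 ligands were called higher and 2 genes lower, near the shares over all genes. Ereg (epiregulin) was well above background on no AOM array and at least 1.88-fold higher (means -3.55 in AOM/DSS and -6.13 in AOM, adjusted p = 0.00189). Btc (betacellulin) stood at -0.97, -1.67 and -1.21 against -3.45, -2.30 and -2.17 (difference 1.36) and Tgfa differed by 0.82, with probes that disagreed in sign. Areg, at 0.29, 0.38 and 0.43 against 1.22, 1.31 and 1.47, was not called, though its groups did not overlap (adjusted p = 0.0886). The receptor gene Erbb2 and Lrig3 fell by 1.08 and 1.54. Of 27 BMP and TGF-beta genes, 6 were called lower, against 17.6% over all genes. Nog (noggin, a BMP inhibitor) stood at -3.0, -2.54 and -3.38 against -0.69, -0.42 and -1.04 (difference -2.26, SE 0.31, adjusted p = 0.00167), and Bmp3, Bmp8a and Id4 differed by -1.55, -1.81 and -2.51. Fst (follistatin, which binds activin) was the member called higher (2.38, and 1.39 with adjusted p = 0.16 without AOM replicate 1). Of 18 genes of repair or fetal-type epithelium, Ereg and Anxa1 (1.05) were called higher and Sprr1a (-3.16) and Krt19 (-1.40) lower. Tgfa, Erbb2 and Anxa1 lost the call without AOM replicate 1 (adjusted p = 0.077, 0.074 and 0.065). Ly6a (Sca-1) was not called (0.68, adjusted p = 0.051).

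Of 16 genes of prostaglandin metabolism, 2 were called higher and 4 lower, against 19.8% and 17.6% over all genes. Their median difference was -0.11. Slco2a1, the prostaglandin carrier gene, stood at -0.30, 0.05 and -0.18 in AOM/DSS and at 3.15, 2.02 and 2.44 in AOM (difference -2.68, SE 0.39, adjusted p = 0.00223). Hpgd, which inactivates prostaglandins, stood at 0.11, -0.06 and -2.16 against 1.37, 1.46 and 1.70 (difference -2.21). The receptor gene Ptger3 differed by -2.22 and the synthase gene Ptges2 by -0.93. Ptgs1 (cyclooxygenase 1) was not called (-0.29), and the genes called higher were Hpgds and Ptges3, the second not without AOM replicate 1 (adjusted p = 0.13).

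Of 23 interferon-induced genes, 5 were called lower and none higher, close to the 17.6% called lower over all genes. Irf7, the factor that sustains the type I response, stood at 0.49, 0.25 and 1.11 in AOM/DSS and at 3.45, 2.73 and 3.05 in AOM (difference -2.46, SE 0.36, adjusted p = 0.00223). Oasl1 stood at 2.07, 1.77 and 2.42 against 4.47, 4.23 and 4.05 (difference -2.16), Oas1a differed by -2.03, Oasl2 by -1.77 and Isg15 by -1.75. Gbp2 was not called (0.40). Isg15 and Oasl2 lost the call without AOM replicate 1 (adjusted p = 0.14 and 0.061), and 3 of the 5 held with slide as a block.

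The clock output Dbp, a PAR-bZIP factor, stood at 0.88, 1.18 and 0.71 in AOM/DSS and at 3.02, 4.14 and 4.35 in AOM (difference -2.92, SE 0.40, adjusted p = 0.00166). Nr1d1 (REV-ERB alpha, a repressor of the clock) stood at -2.68, -1.69 and -1.87 against 0.50, 0.86 and 0.23 (difference -2.61), and Tef and Per1 differed by -1.23 and -0.99. Clock itself was the member called higher (1.27) and Arntl was not called (0.09). The labels give no hour of collection, so its part was not tested. Of 19 immediate early and heat shock genes, Ier2 (-1.29), Zfp36 (-1.09) and Junb (-1.02) were called lower and Hsp90aa1 (1.15) higher. Of 22 unfolded protein response genes, Hsp90b1 was called higher (0.61) and Herpud1 lower (-0.90). Of 16 claudin and tight junction genes, 6 were called lower, among them Cldn8 (-1.86), Cldn15 (-1.72) and Cldn7 (-1.12), and Tjp1 higher (0.79, with probes of both signs). No claudin was called lower with slide as a block. Per1, Hsp90b1, Herpud1, Cldn7 and Tjp1 lost the call without AOM replicate 1 (adjusted p = 0.055, 0.088, 0.14, 0.057 and 0.17). Cldn2, a pore-forming claudin, stood at 0.94, 1.74 and 1.93 against 0.54, 1.65 and 1.87 in AOM and was not called.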

How the data were processed

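RNA of the distal colorectum was measured on 12 one-colour Agilent arrays, 6 of which carry this comparison. Per the file headers, the deposited spot intensity values had been background-subtracted and spatially detrended within each array. The submitters' processing notes name Agilent Feature Extraction 10.7. The deposited table of log2 values was normalized between arrays by the authors and served as an alternative. The sources used here do not name the method. The columns of that table share a median of 6.17. Once sorted, they differ by less than 0.001, so all hold the same distribution, as quantile normalization gives. This alternative and the quantile normalization setting are therefore not independent.

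Control spots and 129 probes with outlier flags were left out, spots of a probe averaged and 41045 probes kept. The log2 of each intensity minus its array's 75th percentile was analysed. A probe was tested if well above background on all 3 arrays of AOM/DSS or of AOM, and a gene took its brightest tested probe. Symbols came from the probes' accessions through RefSeq (GRCm38.p6); 27114 probes had one. limma 3.58.1 (lmFit, eBayes; R 4.3.3) fitted all 12 arrays, and its adjusted p is Benjamini-Hochberg over 18700 genes. The fit was tested on simulated data. The number of arrays limits the precision, and the median SE was 0.31. Folds "at least" set the bright group's mean against the higher, per array, of the dim probe and the lowest signal well above background. The adjusted p beside such a fold is that of the full fitted difference, which uses the background readings. The fold itself was not tested.

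Genes named are the 15 largest rises and falls that were called, did not overlap, had a symbol and were well above background throughout the higher group, then from each list the largest called members, the brightest members not called and defining markers. A few others printed, among them single list members at a count of 5 or fewer, were chosen after their values were seen. The members and lists were chosen with earlier results of these data known. Alternatives changed background correction, scaling, filter, probe choice, slide, replicate block, weights and arrays left out. Results for some genes are not reported here.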

Additional observations from a re-analysis of the deposited data

How the results depend on the processing

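The main setting called 7002 genes, 3703 higher and 3299 lower, 4905 of them past 1 log2 unit. Normexp background correction called 1529 (606 higher, 923 lower, 1451 past 1 log2 unit), so that higher genes made 39.6% of calls in place of 52.9%. With slide as a fixed block 2817 were called (1424 higher, 1393 lower, 2736 past 1 log2 unit), and on slide 1 alone 4016 (2291 higher, 1725 lower). Array weights called 10812, 5390 of them lower. Genes with a symbol alone gave 4606, 1752 higher and 2749 past 1 log2 unit. Probes well above background on all 6 arrays gave 2194 higher and 3148 past 1 log2 unit. Leaving out 1 array gave 3383 to 5488 calls, 1785 to 2838 higher, 1598 to 2650 lower and 3040 to 4553 past 1 log2 unit; AOM/DSS replicate 1 gave the fewest and AOM replicate 3 the most. Leaving out an array leaves fewer samples; the other causes were not tested. In the other settings the number called stayed within 1.5 times, from 6431 (the authors' series matrix values) to 9105 (every probe on its own). Higher genes made 33.9% of calls under median scaling and 59.6% when the percentile was taken over probes with a symbol, with median differences over all genes of -0.36 and 0.07. Wnt16 was reversed under normexp, at -0.0513 (adjusted p = 0.976 in limma). No gene called both in the main setting and in an alternative that gives a value per gene had opposite signs, except 2 under the mean over a gene's probes; with every probe on its own, 18 genes had called probes of both signs. Of 284 named genes, 18 to 42 lost the call when 1 array was left out, 58 with slide as a block and 74 under normexp. Same-numbered AOM/DSS and AOM arrays deviated together by correlations of 0.123, 0.0727 and 0.0982, so the numbers were not taken as pairs; the replicate block called 6721 genes (3770 higher, 2951 lower), 6292 of them shared. Probes near background limit the dim genes.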
